A study of Macaca mulatta with 16 samples.

Results

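Some stretches of chromatin were open in every CD4+ and every CD8+ T cell library of this study and still differed in strength between the lineages. Of 55449 regions built by merging the peaks of 16 libraries that shared at least 1 bp, 24333 held a peak in all 16 and 18930 of these, the candidate regions, were 1201 to 5999 bp wide. The strength of a region in a library was the highest percentile of the peak caller's area score among that library's peaks in the region, ranked within the library's own list. A region was a member when all 8 CD4 libraries lay above all 8 CD8 libraries, or all 8 below. This chose 734 regions (3.88% of the candidates), 457 higher in CD4 libraries (2.41%) and 277 higher in CD8 libraries (1.46%). The members were thus chosen by their measured difference in area score between CD4 and CD8 libraries, and that difference is described below and was not tested.

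CD4+ and CD8+ T cells arise in the thymus from a shared precursor that carries both co-receptors. CD4+ cells read antigen on MHC class II and act mainly as helpers, and CD8+ cells read it on MHC class I and act mainly as killers. Accessible regions mark promoters, enhancers and other sites where proteins bind DNA, and most of them are shared by related cell types, so lineages can differ in how strongly a shared site is open as well as in which sites are open.

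The libraries came from peripheral blood of 2 rhesus macaques (Macaca mulatta), an outbred monkey used to model human immunity, and were made by ATAC-seq, in which a transposase tags accessible DNA. Each animal gave CD4+ naive, CD4+ memory, CD8+ naive and CD8+ memory T cells, with 10000 sorted cells per library, at 2 times. The before libraries carry no treatment, and the after libraries come from the same animals given 2-hydroxypropyl-beta-cyclodextrin (Kleptose HBP), a cholesterol-binding ring of sugars, under the skin at 1 ml/kg/day of a 15% (w/w) solution for up to 120 days. Each of the 8 groups thus has 2 libraries, 1 per animal. No animal was sampled at both times without treatment, so time and treatment cannot be told apart. Sorted populations were taken as labelled, since no marker gene could be placed on these coordinates here.

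Lists held 36307 to 42034 peaks covering 51.4 to 66.3 Mb, and the shortest 2 were the CD8 naive lists of animal 1, with 36307 peaks before and 37966 after. A percentile within a list moves with the length of the list: the median candidate region stood between the 70.3 percentile (CD8 naive before, animal 1) and the 74.1 percentile of its list. Read depth was unknown. The score adds signal over the length of a peak, so a wide peak can outrank a narrow one of the same height, and percentiles are compared here between libraries at the same region. In sorted bulk cells, a region open in fewer cells and a region less open in each cell cannot be told apart.

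The 2 directions were not equally large, and the balance between them depended on the ranking. When strength was instead ranked among the 18930 candidate regions only, which are the same regions in each library, 385 were higher in CD4 and 446 higher in CD8. That ranking kept 352 (77.0%) of the CD4-higher and 267 (96.4%) of the CD8-higher members. Lists cut to the length of the shortest gave 385 and 329, and leaving out both short CD8 naive lists, a choice made after seeing the data, gave 491 and 420. The excess of CD4-higher members is therefore not given as a property of the lineages. Splitting the same 16 libraries by other labels, naive and memory cells were completely separated at 1532 candidates (8.09%), the animals at 396 (2.09%) and the times at 2 (0.0106%).

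In the 457 CD4-higher members the median percentile was 67.8 to 71.1 across the CD4 libraries and 51.3 to 60.4 across the CD8 libraries. In the 277 CD8-higher members it was 49.3 to 51.3 across the CD4 libraries and 63.7 to 69.4 across the CD8 libraries. Members of both directions were weaker regions than the candidates as a whole, whose mean percentile over the 16 libraries had a median of 72.4. That median was 61.5 in the CD4-higher set and 57.5 in the CD8-higher set.

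**Figure D1:**
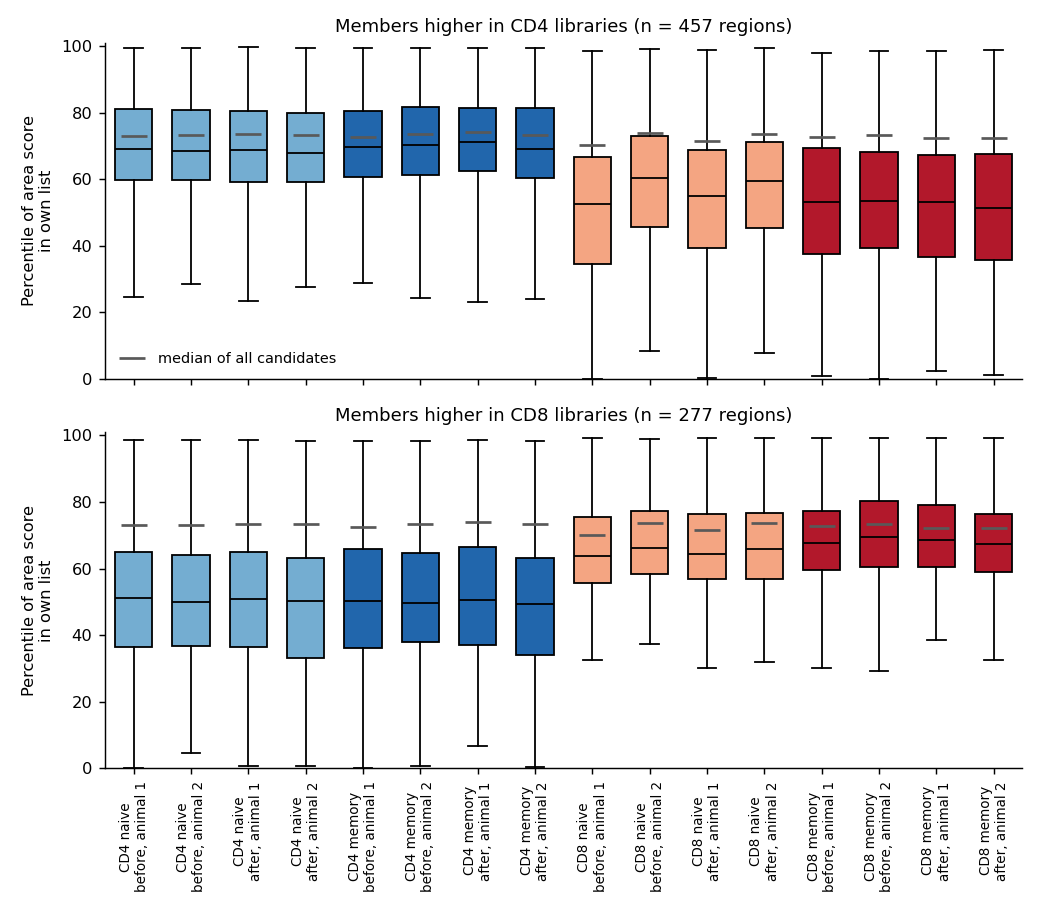
Percentile of the area score within the own list (vertical axis, 0 to 100) for the 457 members higher in CD4 (top) and the 277 higher in CD8 (bottom) in each of the 16 libraries; boxes span the quartiles with the median inside, whiskers reach the lowest and highest member, and short grey lines give the median of all candidates in that library. Boxes of the lower lineage lie below those of the higher lineage but overlap them, since the separation holds region by region.

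Members thinned out as regions grew stronger. Of 5 equal parts of the candidates by mean percentile, each with 3786 regions, the weakest was 3.94% CD4-higher and 3.01% CD8-higher members. The strongest, with mean percentiles of 87.8 and above, was 1.16% and 0.66%. Regions near the top of every list leave less room between libraries on a percentile scale, and what part this has in the fall was not tested.

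The gap, the distance from the lowest library of the higher lineage to the highest library of the lower one, was mostly small. Its median was 2.28 percentile points in the CD4-higher set and 2.70 in the CD8-higher set, while the lineage means differed by a median of 14.9 and 15.3 points. Gaps of over 10 points occurred in 7% of the CD4-higher (32) and 14.4% of the CD8-higher members (40), and gaps of under 1 point in 25.4% and 27.1%. Regions are named below by direction and by place in the order of gaps, so that CD4-1 and CD8-1 had the largest gap of each direction, and positions are in rheMac10.

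CD4-1, on chromosome 12 at 57958876 to 57962616, had the widest gap of the CD4-higher set, 29.3 points. Its CD4 libraries had a lowest, median and highest percentile of 68.9, 71.5 and 79.5, and its CD8 libraries 7.96, 36.2 and 39.6. All CD4 libraries held 1 peak across most of the region, with a mean width of 3305 bp. The CD8 libraries held a mean of 2.25 peaks, and their strongest peak was 1346 bp wide on average, with summits 1006 bp away from those of the CD4 libraries. Ranked by the height of the summit (its −log10 p) instead of by area, the lineages overlapped in this region (gap −3.92). It held a broad CD4 peak where each CD8 library had 2 or 3 shorter ones.

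At CD4-2 (chromosome 5, 38111281 to 38114033) the CD4 libraries stood at 65.3, 67.7 and 70.0 (lowest, median, highest) and the CD8 libraries at 6.12, 28.4 and 42.1. The CD8 libraries held a mean of 1.62 peaks there, against 1 in each CD4 library. Unlike at CD4-1, some CD8 libraries held a single peak. CD4-3 (chromosome 6, 40290615 to 40292012) had a single peak in each of the 16 libraries with summits 9 bp apart between the lineages. Its CD4 libraries stood at 55.8, 60.0 and 66.4 and its CD8 libraries at 0.0909, 23.7 and 33.0. In the weakest CD8 library, CD8 naive before of animal 1, CD4-3 was thus among the last peaks of the list.

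CD4-4 (chromosome 6, 110806928 to 110809770) was the strongest of the leading CD4-higher regions, with CD4 libraries at 77.7, 81.7 and 85.2 and CD8 libraries at 23.5, 54.1 and 60.1. CD4-5 (chromosome 15, 77095072 to 77096623) varied least of these 6 among CD4 libraries, at 73.4, 75.3 and 77.7, and most among CD8 libraries, at 10.8, 40.6 and 55.9. Within CD8 it was lower in memory cells, with a mean percentile of 26.0 ± 12.4 (SD, n = 4) against 48.9 ± 4.87 (SD, n = 4) in naive cells. CD4-6 (chromosome 19, 33299897 to 33301886) stood at 56.5, 63.9 and 66.8 in CD4 and 23.9, 34.0 and 39.4 in CD8 libraries. It lay 21.3 kb from a region that had a peak in all 8 CD4 and no CD8 library.

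CD8-1, on chromosome 19 at 304621 to 307262, had the widest gap of all members, 37.4 points. Its CD8 libraries stood at 76.8, 81.9 and 85.9 and its CD4 libraries at 1.32, 23.2 and 39.4. The lineage means were 82.3 ± 3.36 and 23.4 ± 12.8 (SD, n = 8 each). Every library held 1 peak in this region, with a mean width of 2375 bp in CD8 and 881 bp in CD4 libraries and summits 15 bp apart. The same place was open in both lineages, and the mean −log10 p at the summit was 6.12 in CD8 and 3.58 in CD4 libraries.

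CD8-2 (chromosome 16, 50801821 to 50805435) stood at 64.2, 70.5 and 78.8 in CD8 libraries and at 8.77, 32.5 and 41.5 in CD4 libraries. It lay 0.657 kb from a region that had a peak in all 8 CD8 and no CD4 library. CD8-3 (chromosome 20, 68541565 to 68543594) stood at 62.3, 69.0 and 79.7 in CD8 and 15.2, 24.5 and 40.9 in CD4 libraries. CD8-4 (chromosome 1, 199754302 to 199756672) stood at 68.6, 71.8 and 77.7 in CD8 and 7.70, 35.1 and 47.5 in CD4 libraries. In CD8-2 and CD8-4 the CD4 naive libraries were the lower ones, with mean percentiles of 19.8 and 21.5 against 39.6 and 44.6 in CD4 memory libraries.

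CD8-5 (chromosome 11, 9194306 to 9195787) varied least of these 6 among CD8 libraries, at 54.2, 57.1 and 60.8, with CD4 libraries at 16.1, 25.2 and 33.5. CD8-6 (chromosome 20, 65804816 to 65806267) was the weakest of these 6, at 43.8, 48.7 and 57.3 in CD8 and 9.88, 17.6 and 23.9 in CD4 libraries. Both held 1 peak in each of the 16 libraries, and the lineages' summits lay 4 and 8 bp apart. CD8-4 and CD8-5 lay 10.4 and 9.49 kb from a region open in all 8 CD8 and no CD4 library.

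**Figure D2:**
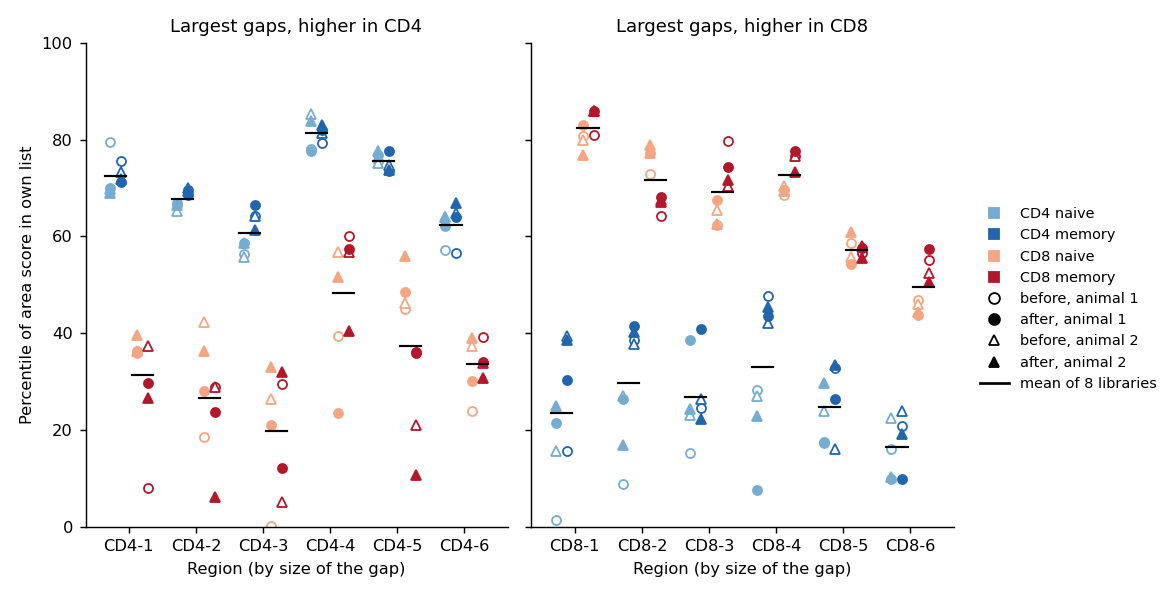
Percentile of the area score in the own list (vertical axis) in each of the 16 libraries for the 6 regions of largest gap in each direction (horizontal axis); colour gives the population, open and filled symbols before and after, circles and triangles animals 1 and 2, and black lines the mean of 8 libraries. The clear space between the lineages is widest in CD8-1 (37.4 points), and the lower lineage is the more scattered one, as in CD4-5.

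At the other end, the members of smallest gap differed little. CD4-457 (chromosome 8, 23482849 to 23486355) had its lowest CD4 library at 91.16 and its highest CD8 library at 91.15. CD4-456 (chromosome 6, 148589724 to 148591688) had them at 36.68 and 36.66. CD8-277 (chromosome 2, 143031931 to 143035773) had its lowest CD8 library at 97.18 and its highest CD4 library at 97.17, and CD8-276 (chromosome 13, 101348735 to 101351921) had them at 62.81 and 62.78.

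Just outside the rule, 2 regions of chromosome 10 missed the CD4-higher set by under 0.01 points. They lie at 10315334 to 10318046 and 70825162 to 70827028, with gaps of −0.0064 and −0.00739. For the CD8-higher set the nearest 2 were also on chromosome 10, at 6825238 to 6829880 and 11577452 to 11581091, with gaps of −0.000977 and −0.0107. No step in the gap thus set members apart from the regions next to them.

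The lineage in which a region was weaker was mostly also the one in which libraries scattered more. In the CD4-higher set the median SD over 8 libraries was 2.64 points in CD4 and 5.79 in CD8, and the CD8 SD was the larger in 402 members (88%). In the CD8-higher set it was 4.71 in CD4 and 3.20 in CD8, and the CD4 SD was the larger in 201 (72.6%). Over all candidates the CD8 SD was the larger in 71.4%, with medians of 2.46 in CD4 and 3.21 in CD8, the reverse of the CD8-higher set. The rule used these same percentiles and limits their scatter, so these values are descriptions.

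On the CD8 side of the gap, naive libraries set the limit more often than memory ones. In the CD4-higher set the highest CD8 library was a naive one in 288 members (63%), most often that of animal 2, which set it in 147 members before and 110 after. In the CD8-higher set the lowest CD8 library was a naive one in 190 members (68.6%). The shortest list, CD8 naive before of animal 1, alone was that library in 82 (29.6%). On the CD4 side, the lowest CD4 library of CD4-higher members was a naive one in 277 (60.6%). The highest CD4 library of CD8-higher members was a naive one in 133 (48%). What part list length has in these counts was not tested beyond the rankings given above.

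Members were not of unusual size. Their median merged width was 2435 bp in the CD4-higher and 2321 bp in the CD8-higher set, against 2421 bp over all candidates. Their strongest peak was wider in the stronger lineage, with medians of 1992 bp in CD4 and 1392 bp in CD8 libraries for the CD4-higher set, and 1609 bp in CD8 and 1141 bp in CD4 libraries for the CD8-higher set. Candidates as a whole had 1823 bp in CD4 and 1763 bp in CD8. The summit's −log10 p was also higher in the stronger lineage, at medians of 5.37 against 4.44 in the CD4-higher set and 5.32 against 4.41 in the CD8-higher set.

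Area, width and height belong to the same peak and are not separate evidence. Ranked within its list, the summit's −log10 p also separated the lineages completely in 185 (40.5%) of the CD4-higher and 136 (49.1%) of the CD8-higher members, always in the same direction, against 1.43% and 0.93% of all candidates. Peak width did so in 129 (28.2%) and 48 (17.3%), against 1.1% and 0.301%. In the remaining members the area separated the lineages and the height or width alone did not.

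Lineages mostly used the same position. The median distance between the summits of CD4 and CD8 libraries was 7 bp in the CD4-higher and 8 bp in the CD8-higher set, and 5 bp over all candidates. Summits lay over 500 bp apart in 27 CD4-higher members (5.91%) and 14 CD8-higher members (5.05%), against 2.48% of all candidates. Every library held exactly 1 peak in 310 (67.8%) and 200 (72.2%), against 75% of candidates. Just 3 candidates had 1 peak in all CD4 libraries and 2 or more in all CD8 libraries, and all 3 were CD4-higher members.

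Choosing regions in 1 animal and reading them in the other uses libraries that the choice did not see. In the 8 libraries of animal 1 alone, all 4 CD4 lay above all 4 CD8 libraries in 2157 candidates. Of these, 729 (33.8%) were completely separated the same way in animal 2, where 6.15% of all candidates were, and 2 the opposite way. For CD8 above, 363 of 621 (58.5%) were separated the same way in animal 2, against 5.62% of candidates, and none the opposite way.

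Read from animal 2 into animal 1, the CD4-above choice gave 729 of 1164 (62.6%, against 11.4% of candidates). The CD8-above choice gave 363 of 1063 (34.1%, against 3.28%), with 0 and 2 opposite. The lineage means differed in the chosen direction in 94.6% and 96.6% of the regions chosen in animal 1, where 50.6% and 49.4% of all candidates did in animal 2. For regions chosen in animal 2 it was 99.1% and 88.9%, against 63.7% and 36.3% of all candidates in animal 1. Ranked among the candidates, the same 4 shares of complete separation were 46.8%, 38.4%, 50.8% and 53.1%, with none opposite. The order of the directions therefore changed with the ranking, while every share stood above that of all candidates.

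The same reading can be made across states, where the libraries differ but the animals are shared. Of 1920 candidates with all 4 naive CD4 above all 4 naive CD8 libraries, 1027 (53.5%) were separated the same way in memory cells, where 15.1% of all candidates were. Of 1213 with naive CD8 above, 592 (48.8%, against 8.9%) were. From memory into naive cells the shares were 35.8% of 2867 (against 10.1%) and 35.2% of 1684 (against 6.41%). Opposite separation occurred in 9 to 20 regions of each choice (0.314% to 1.19%), against 6.41% to 15.1% of all candidates. By percentile in the own list, lineage strength was thus shared between states at many regions and turned around at few. Ranks among the candidates were read across animals only, so the part of the ranking in these shares was not tested.

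**Figure D3:**
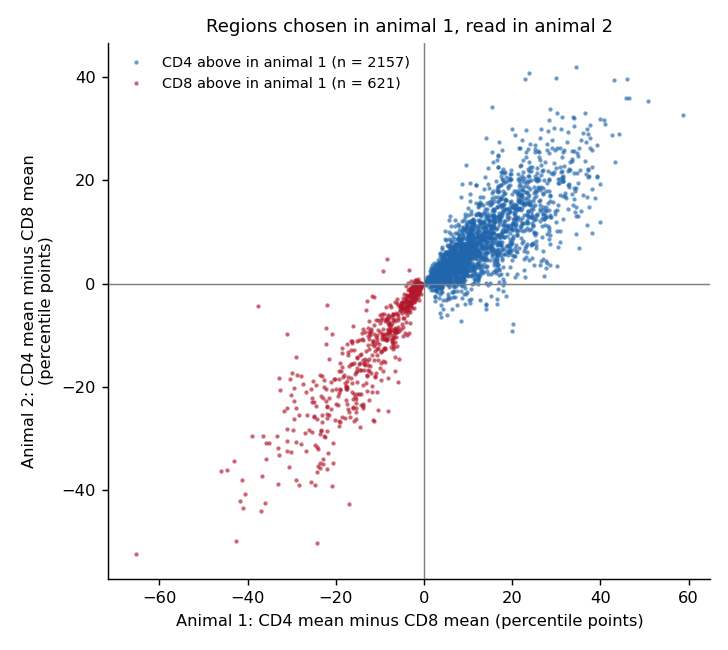
Difference between the mean CD4 and mean CD8 percentile (percentile points) in animal 1 (horizontal axis) and in animal 2 (vertical axis) for the 2157 regions with CD4 above and the 621 with CD8 above in animal 1, 1 point per region. Most points lie to the lower left and the upper right, where both animals differ in the same direction (94.6% of the CD4-above and 96.6% of the CD8-above regions).

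Naive and memory cells also differed at part of the members. For the tests that follow, strength was ranked among the candidate regions (0 to 100 rank points) and fitted with limma over all 8 groups, with Benjamini-Hochberg adjustment over the 18930 candidates and a threshold of 0.05. Of the 457 CD4-higher members, 43 (9.41%) were higher in memory and 90 (19.7%) higher in naive cells, against 18% and 20.7% of all candidates (38.6% in either direction). Of the 277 CD8-higher members, 55 (19.9%) were higher in memory and 28 (10.1%) higher in naive cells. With the animal as a block, 55 (12%) and 110 (24.1%) of the CD4-higher members were higher in memory and in naive cells. In the CD8-higher set these were 72 (26%) and 38 (13.7%), against 20.9% and 25.2% of all candidates. A large state difference within a lineage makes complete separation of lineages harder to reach, so shares below those of the candidates are not read as a property of the members.

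Among CD4-higher members, CD4-444 (chromosome 3, 109829060 to 109831463) was higher in memory cells by 19.6 ± 2.47 rank points (SE, adjusted p = 0.000204). Its mean rank was 49.7 and 63.5 in CD4 naive and memory and 19.6 and 45.0 in CD8 naive and memory libraries. CD4-137 (chromosome 7, 70926270 to 70929772) was higher in memory by 19.02 ± 2.02 (adjusted p = 6.96e-05). In both regions the CD8 memory libraries came closer to the CD4 naive ones than the CD8 naive libraries did.

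Among CD8-higher members, the region of chromosome 1 at 25862072 to 25864759 was higher in memory by 20.04 ± 3.49 rank points (SE, adjusted p = 0.00146). Its mean rank ran in the order CD4 naive 19, CD4 memory 43.2, CD8 naive 57.8 and CD8 memory 73.8. CD8-137 (chromosome 4, 135583546 to 135585440) and CD8-62 (chromosome 11, 53654118 to 53657374) were lower in memory, by −16.6 ± 2.45 and −15.1 ± 2.51 (adjusted p = 0.000525 and 0.00108). CD8-62 ranked 28.6 in CD4 naive, 6.56 in CD4 memory, 70.5 in CD8 naive and 62.3 in CD8 memory libraries.

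The size of the lineage difference depended on the state at some members. The test was the interaction of lineage and state in the same fit. The rule used the same libraries and fixes the sign of the lineage difference in each state. It also places every library of the higher lineage above every library of the lower one across states. The rule thus limits the size and spread that this test reads. Shares above those of the candidates are therefore not read as a property of the members. In the CD4-higher set the difference was larger in memory cells at 36 members (7.88%) and larger in naive cells at 2 (0.438%), while the contrast passed in the same 2 directions at 1.52% and 1.18% of candidates (2.69% in all). In the CD8-higher set it was larger in memory at 23 members (8.3%) and larger in naive at 3 (1.08%). With the animal as a block the counts larger in memory were 64 (14%) and 31 (11.2%), against 3.15% and 2.41% of candidates in the same directions. Leaving out 1 library at a time they ran from 17 (without CD4 memory after of animal 1) to 51, and from 9 (without CD4 naive after of animal 1 or CD8 naive after of animal 2) to 35 (without CD8 memory before of animal 1).

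This was not particular to the members. The median lineage difference was 13.1 rank points in naive and 17.7 in memory cells in the CD4-higher set, and 16.6 and 20.4 in the CD8-higher set, larger in memory at 326 (71.3%) and 192 (69.3%). Other candidates past the limma threshold for lineage, 2078 higher in CD4 and 2357 higher in CD8, were larger in memory at 70.3% and 68.6%. Their interaction passed toward memory at 8.81% and 5.9%. An exact permutation test called 0 of these members after adjustment. Its smallest possible p was 0.0286, with 25.8% and 25.3% of the members at an unadjusted p under 0.05, against 15.3% of all candidates.

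CD4-159 (chromosome 3, 20490474 to 20493126) showed the largest interaction of the members, 58.8 ± 2.97 rank points (SE, adjusted p = 3.15e-05). It ranked 92.2 to 94.7 in the 4 CD4 naive libraries, 88.6 to 92.7 in CD4 memory, 75.2 to 81.0 in CD8 naive and 10.1 to 20.4 in CD8 memory libraries. Among the candidates the region was thus strong in 3 populations and low in CD8 memory cells, in both animals and at both times. In their own lists the CD8 memory libraries held it at percentiles of 42.1 to 55.4. CD4-283 (chromosome 3, 14093113 to 14097096) had the same order, with mean ranks of 94.5, 86.8, 72.2 and 23.6. Its interaction of 41.0 ± 8.07 (adjusted p = 0.0283) was lost in 9 of 16 fits that left out 1 library. The limma call was also lost with the percentile in the own list (adjusted p = 0.107) and with normal scores.

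The reverse, a difference larger in naive cells, was clearest at CD4-278 (chromosome 16, 48195871 to 48199806), at −21.9 ± 2.78 (adjusted p = 0.00467). Its mean rank was 80.3 in CD4 naive, 64.5 in CD4 memory, 48.4 in CD8 naive and 54.5 in CD8 memory libraries, so the lineages came together in memory cells. CD4-255 (chromosome 9, 51632462 to 51636316) passed by a small margin, at −6.91 ± 1.52 (adjusted p = 0.0449), and the sign turned on a normal-score scale (0.025, adjusted p = 0.944). Of the named regions it was the least settled.

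Among CD8-higher members the largest interactions toward memory belonged to CD8-84 and CD8-100. CD8-100 (chromosome 2, 19411858 to 19415975) ranked 14.9 to 19.8 in the 4 CD8 naive and 43.2 to 55.1 in the 4 CD8 memory libraries, while all 8 CD4 libraries ranked between 4.16 and 9.51. Its interaction (CD4 minus CD8, memory minus naive) was −32.6 ± 3.24 rank points (SE, adjusted p = 0.00172). Among the candidates the region was thus low in 3 populations and higher in CD8 memory cells. By percentile in the own list it stood at 34.5 to 44.6 in CD4 and 49.1 to 50.6 in CD8 naive libraries. In CD8 memory libraries that percentile was 68.6 to 75.9. CD8-84 (chromosome 2, 170364670 to 170369483) followed the same order, with mean ranks of 1.67, 3.44, 22.5 and 60.6. Its call (−36.3 ± 7.69, adjusted p = 0.0385) was lost in 14 of 16 fits that left out 1 library. With the percentile in the own list (limma adjusted p = 0.401) and with normal scores it was lost too.

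CD8-2, introduced above, had the largest interaction toward naive cells of the CD8-higher members, 22.6 ± 1.69 rank points (SE, adjusted p = 0.000317). It ranked 54.4 to 60.3 in CD8 naive and 35.4 to 42.4 in CD8 memory libraries, and between 0.195 and 6.48 in the CD4 libraries. By percentile in the own list it stood at 72.8 to 78.8 in CD8 naive and 64.2 to 68.1 in CD8 memory libraries. Its CD4 libraries stood at 8.77 to 27.1 in naive and 37.8 to 41.5 in memory cells, so by that percentile both lineages moved. CD8-35 (chromosome 2, 129820539 to 129822437) passed too, at 14.2 ± 2.81 (adjusted p = 0.0283), with the change on the CD4 side. It ranked 5.48 in CD4 naive and 21.2 in CD4 memory libraries but 47.8 and 49.3 in CD8, and it was lost in 10 of 16 fits without 1 library.

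**Figure D4:**
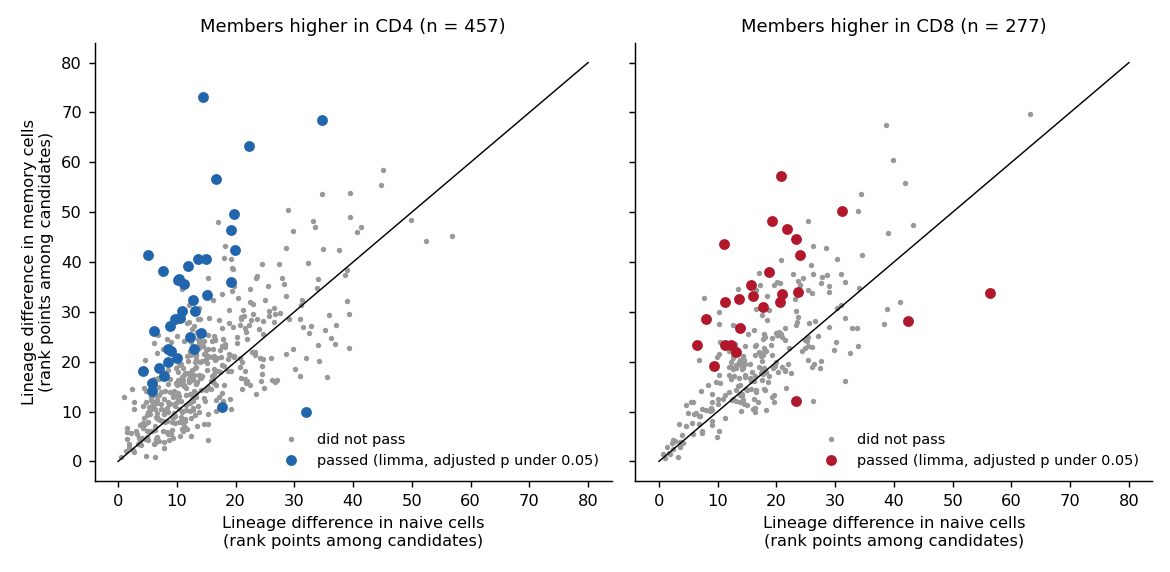
Size of the difference between the lineages in naive cells (horizontal axis) and in memory cells (vertical axis), in rank points among the candidates, for the 457 members higher in CD4 (left) and the 277 higher in CD8 (right), 1 point per region; the line marks equal size and large coloured points passed the limma test of the interaction (adjusted p under 0.05). Most members lie above the line (326 of 457 and 192 of 277), and 36 and 23 of the coloured points lie above it against 2 and 3 below.

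By the order of the 4 population means, 154 CD4-higher members (33.7%) were higher in memory within CD4 and higher in naive within CD8, which places the populations farthest apart in memory, against 13.2% of candidates. The mirror image in the CD8-higher set, higher in naive within CD4 and higher in memory within CD8, held at 79 members (28.5%), against 10.4% of candidates. The rule used these libraries, so these shares are descriptions.

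Few members passed a test of treatment. Comparing after with before, 1 of the 457 CD4-higher and 0 of the 277 CD8-higher members passed the limma test, against 0.0317% of all candidates. At an unadjusted p under 0.05 there were 35 (7.66%) and 15 (5.42%), against 9.4% of candidates. An exact sign-flip test over matched libraries had 58 (12.7%) and 27 (9.75%) at an unadjusted p under 0.05, against 12.9% of candidates. Its smallest possible p is 0.00781, too large for a few regions to pass after adjustment over 18930, so its count of 0 adjusted calls says nothing about the treatment. The median change was −0.146 rank points in the CD4-higher and −0.207 in the CD8-higher set, against 0.24 over all candidates.

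The lineage difference changed with time at the same 1 CD4-higher member and at 0 CD8-higher members, against 0.0158% of candidates in its direction and 0.0264% in either (20 and 11 members, 4.38% and 3.97%, at an unadjusted p under 0.05, against 3.69% of candidates). The exact test cannot go below 0.0286, too large for a few regions to pass after adjustment, so its 0 calls say nothing here. It had 12 (2.63%) and 6 (2.17%) unadjusted, against 3.29%. That region was CD4-259 (chromosome 10, 11157965 to 11162980). It ranked 91.1 to 94.7 in the 4 CD4 libraries before and 59.6 to 66.7 in the 4 after, and 45.1 to 55.4 in the 8 CD8 libraries. The change over all libraries was −16.0 ± 1.53 rank points (SE, adjusted p = 0.00815), and the lineage difference changed by −30.3 ± 3.07 (adjusted p = 0.0101).

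The 4 CD4 before libraries held a single peak of 4348 to 5016 bp at CD4-259. The 4 CD4 after libraries held 2 peaks there, the stronger of them 2944 to 3187 bp wide, and the CD8 libraries held 2 at both times. The lower strength after treatment thus went with a long peak being called as a pair of shorter ones. Neither call held with the percentile of the own list (adjusted p = 0.118 and 0.273), and the second was lost without the CD4 naive before library of animal 1 (adjusted p = 0.0546). The part of the peak calling in this change was not tested.

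The 2 animals differed at some members, read from the fit with the animal as a term. Of the CD4-higher members 28 (6.13%) were higher in animal 2 and 33 (7.22%) in animal 1, against 7.93% and 8.02% of candidates. Of the CD8-higher members 9 (3.25%) were higher in animal 2 and 29 (10.5%) in animal 1. CD4-190 (chromosome 5, 2878560 to 2882349) was higher in animal 2 by 18.3 ± 3.24 rank points (SE, adjusted p = 0.0053). Its CD8 libraries ranked 6.02 to 24.5 in animal 1 and 29.6 to 51.1 in animal 2, while its CD4 libraries ranked 58.7 to 66.9 and 69.2 to 75.3.

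CD4-138 (chromosome 6, 54909445 to 54912775) was also higher in animal 2, by 14.9 ± 2.18 rank points (SE, adjusted p = 0.00202). Among CD8-higher members CD8-143 (chromosome 7, 86753653 to 86757257) was higher in animal 2 by 12.02 ± 2.08 (adjusted p = 0.00471). CD8-76 (chromosome 9, 58806653 to 58810772) passed narrowly, at 13.5 ± 3.90 (adjusted p = 0.0469). In CD8-76 the CD8 memory library of animal 2 before treatment ranked 92.4, the other 3 CD8 libraries of that animal 59.4 to 72.3 and those of animal 1 53.2 to 54.2. Its call was lost in 12 of 16 fits that left out 1 library. For the animal difference, leaving out either library of a group gives the same fit, so these 16 are not separate checks.

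CD8-194 (chromosome 11, 132126806 to 132129358) was higher in animal 1, by −14.5 ± 1.98 (animal 2 minus animal 1, adjusted p = 0.00139). Its CD4 libraries ranked 24.2 to 34.9 in animal 1 and 7.11 to 17.7 in animal 2. CD8-253 (chromosome 4, 122907825 to 122909832) was higher in animal 1 too, by −14.1 ± 2.03 (adjusted p = 0.00184), a call lost with the percentile in the own list (adjusted p = 0.0518). In animal 2 its CD4 memory libraries ranked 0.127 and 0.122, close to the end of the candidates, and in animal 1 11.8 and 11.3. CD4-282 (chromosome 14, 126562860 to 126566437) was also higher in animal 1, with a difference of −11.9 ± 1.45 (adjusted p = 0.000753) that ran through all 4 populations. CD4-21 (chromosome 15, 104639553 to 104643973), at −10.95 ± 2.97 (adjusted p = 0.0357), lost its call with the percentile in the own list (adjusted p = 0.109) and in 12 of 16 fits without 1 library. Separation of the lineages at these regions therefore held at different levels in the 2 animals.

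Members lay on all 21 chromosomes in the lists, the 20 autosomes and X. Chromosome 12 held the highest share in both directions, 23 CD4-higher (3.7% of its candidates) and 20 CD8-higher members (3.22%). Chromosome 16 had the most CD4-higher members after chromosome 1, 41 of 1141 candidates (3.59%). The X chromosome held 2 CD4-higher and 3 CD8-higher members among 531 candidates (0.377% and 0.565%).

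Members tended to have neighbours of their own direction. A separate class of regions had a peak in all 8 libraries of 1 lineage and in none of the other, 173 in CD4 and 206 in CD8. Within 50 kb of such a CD4 region lay 27 CD4-higher members (5.91%) and 2 CD8-higher members (0.722%), against 1.83% of all candidates. Within 50 kb of such a CD8 region lay 25 CD8-higher members (9.03%) and 2 CD4-higher members (0.438%), against 1.6%. These classes come from the same libraries as the members, and no test was made.

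The order was the same at 20 and 100 kb. At 20 kb 18 CD4-higher (3.94%) and 12 CD8-higher members (4.33%) had a region of their own lineage nearby, against 0.845% and 0.745% of candidates, and none had one of the other lineage. Members also lay near each other: 79 CD4-higher members (17.3%) had another CD4-higher member within 50 kb and 11 (2.41%) a CD8-higher one. For CD8-higher members 52 (18.8%) had another CD8-higher member and 8 (2.89%) a CD4-higher one that near. Over all candidates 5.43% had a CD4-higher and 3.44% a CD8-higher member within 50 kb.

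**Figure D5:**
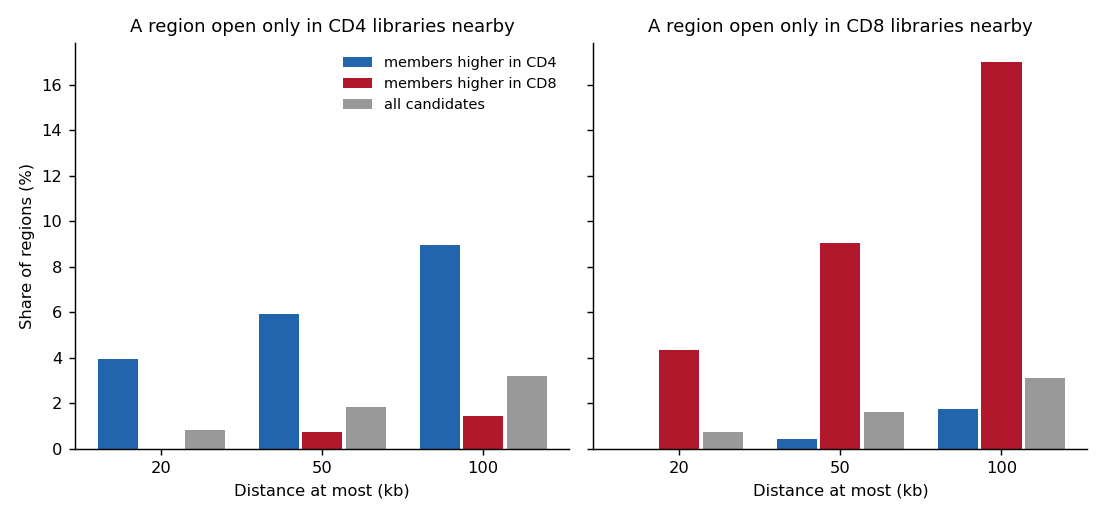
Share of regions (vertical axis, %) with a region open in all libraries of CD4 and none of CD8 (left) or in all of CD8 and none of CD4 (right) within 20, 50 or 100 kb (horizontal axis), for members higher in CD4, members higher in CD8 and all candidates. Bars of the matching lineage stand above the grey bars of the candidates (5.91% against 1.83% and 9.03% against 1.6% at 50 kb), and bars of the other lineage below them.

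Most members stood alone, 378 CD4-higher and 225 CD8-higher, when members of 1 direction at most 50 kb apart were joined. There were 30 and 20 pairs, and 6 and 4 groups of 3 or more. The largest group lay on chromosome 1 at 218026657 to 218072036 and held 4 CD4-higher members among its 6 candidates. They differed in level: CD4-318 had mean percentiles of 92.2 ± 1.10 in CD4 and 84.0 ± 3.73 in CD8 libraries (SD, n = 8 each). CD4-166 had 74.5 ± 12.1 and 28.9 ± 10.5, the widest difference in the group.

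A group on chromosome 5 at 39437791 to 39469415 held 3 CD4-higher members, CD4-74, CD4-226 and CD4-18, of 5 candidates. CD4-18 had mean percentiles of 84.5 ± 4.03 in CD4 and 58.7 ± 5.33 in CD8 libraries (SD, n = 8 each). On chromosome 7 at 131816232 to 131836457 all 3 candidates were CD4-higher members. On chromosome 3 at 131613224 to 131701238 it was 3 of 5, with gaps of 0.689 to 1.16 points.

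Among the CD8-higher groups the one on chromosome 1 at 199745722 to 199789459 had the largest mean gap, 13.7 points. It was made up of CD8-91, CD8-4 and CD8-14, which were all of its candidates. CD8-14 had mean percentiles of 78.0 ± 6.46 in CD8 and 41.0 ± 14.4 in CD4 libraries (SD, n = 8 each), and within CD4 it was the memory libraries that were lower (28.5 against 53.6), the reverse of CD8-4 in the same group. CD8-4 and CD8-14 thus differed in the order of states within CD4.

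The other 3 CD8-higher groups had smaller mean gaps. That was 1.29 points on chromosome 1 (106603232 to 106656349), 1.99 on chromosome 7 (55268171 to 55304759) and 3.99 on chromosome 20, between 72924798 and 72964869. Groups joined members of 1 direction only, so the direction within a group is fixed by the way it was made. Outside their edges, the nearest member of the other direction was 459 kb or more away from 9 of the 10 groups. The exception was the chromosome 5 group of CD4-higher members, where a CD8-higher member, CD8-9 (chromosome 5, 39435065 to 39436863), ended 0.927 kb before CD4-74. CD8-9, with a gap of 16.9 points, was named after its values were seen.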

How the data were processed

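Each library came as 1 deposited narrowPeak list, without pooling of replicates. Genrich 0.6, cutadapt 1.18, the aligner Bowtie2 2.3.4.1 and rheMac10 are named in the submitters' processing notes, while their settings, filters and any shift of reads are not given. The deposited area score (column 7) is the score of the authors' caller, 200.0 or more in every list. The −log10 p at the summit (column 8) is also as deposited by the authors, from 2.42 to 16.3, and the q column holds −1 throughout. Both values belong to their own list and were used only as ranks or thresholds within it. Counts of reads were not used here, so depth and counting error are unknown.

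Peaks of all lists sharing at least 1 bp were merged, and members were chosen by the rule stated at the opening. The members, the lists of regions compared and the tests were chosen with earlier results of these data known. Regions named were, in each direction, the 6 of largest gap, the 2 of smallest gap and the 2 nearest outside, the 2 of largest difference past each test in each direction, and up to 4 groups of at least 3 members (members of 1 direction at most 50 kb apart). Percentile ranks among the 18930 candidates were fitted with limma 3.58.1 (R 4.3.3), with 1 mean per group and 8 residual degrees of freedom. Benjamini-Hochberg adjustment ran over all candidates, with a threshold of 0.05. This main fit did not pair libraries by animal. Animal differences came from a fit with the animal as a further term, which leaves fewer residual degrees of freedom. All libraries came from 2 animals, so p-values measure the spread between these libraries. Both animals gave every population at both times, which pairs the libraries by their titles. Deviations from the group means correlated between libraries of the same animal in all 28 pairs of groups, at 0.241 to 0.567 (median 0.434). The file names number animal 2 differently per population, and the titles were followed. Any 2 lists differed in at least 4069 regions, so none was taken as a duplicate. The scripts were tested on simulated data.

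Alternatives were the ranking among candidates, lists of equal length (36307 peaks), the summed area, the summit −log10 p, a −log10 p of at least 3.42, merging at 100 bp, no width bounds, autosomes, each animal, state or time alone, each library left out, the animal as a block, normal scores and exact tests. Planned work on genes and motifs was not run, because no gene positions of rheMac10 were used here; no gene or sequence was analysed. Scripts ran in Python 3.11.15 with matplotlib 3.10.9, pandas 2.3.3, scipy 1.17.1 and numpy 2.4.6.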

Additional observations from a re-analysis of the deposited data

Results flagged for a closer look

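In CD4-1 the CD8 memory library of animal 1 before treatment stood far below the other CD8 libraries, at a percentile of 7.96 against 26.7 to 39.6. It passed Dixon's 95% limit for 8 values (a ratio of 0.591) as 1 of 28 groups of libraries examined, and chance passes about 1 group in 20. The gap of CD4-1 does not rest on this library, which is the lowest and not the highest CD8 one.

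The lineage difference differed between naive and memory cells, by the limma interaction, at 38 CD4-higher members (36 larger in memory, 2 larger in naive) and 26 CD8-higher members (23 and 3). Over all candidates the share was 2.69%. Toward memory it passed at 7.88% and 8.3% of the members. Other candidates past the limma threshold for lineage passed at 8.81% and 5.9%, so this was not particular to the members. Between before and after the lineage difference differed at 1 CD4-higher member, CD4-259, against 0.0264% of all candidates. The number of called peaks also differed there.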

How the results depend on the processing

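The number of members depended on the ranking. Candidate ranks gave 446 CD8-higher regions in place of 277 and the summit −log10 p gave 276 CD4-higher and 176 CD8-higher regions. Leaving out both CD8 naive libraries of animal 1, added after seeing the data, gave 420 CD8-higher. Parts of the data ask for fewer libraries to separate and gave more CD4-higher and CD8-higher regions: 2157 and 621 in animal 1, 1164 and 1063 in animal 2, 2867 and 1684 in memory, 1920 and 1213 in naive, 1642 and 644 after, and 994 and 731 before. Leaving out 1 library gave 465 to 586 CD4-higher and 287 to 327 CD8-higher regions, within 1.5 times. This too relaxes the rule, so no member could be lost and the counts could not fall. By the summit −log10 p the gap of CD4-1 turned to −3.922.

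The replicate block, the fit paired by animal, raised the CD4-higher members with a larger difference in memory from 36 to 64. It changed no other count of members by over 1.5 times. Over all candidates the calls in that direction rose as well, from 287 to 597. With the percentile in the own list the CD8-higher ones fell from 23 to 11, the CD4-higher counts for time and its interaction from 1 to 0, and the animal counts to 16 and 10 (CD4-higher, animal 2 and 1) and 9 (CD8-higher, animal 1). Without both short lists the CD8-higher members larger in naive went from 3 to 1 and the time interaction from 1 to 0. The exact tests called 0 for both interactions and for time. Their smallest possible p was 0.0286 for the interactions and 0.00781 for time, too large for a few regions to pass after adjustment. Shares read in the other animal were 46.8%, 38.4%, 50.8% and 53.1% under candidate ranks. Neighbour shares were 8.97% and 17.0% at 100 kb and 4.33% at 20 kb (CD8-higher). CD4-255 reversed with normal scores (0.025). The cause of these shifts was not tested.

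With 1 library left out, state counts stayed within 31 to 43 (memory) and 74 to 99 (naive) for CD4-higher and 40 to 62 and 22 to 31 for CD8-higher members. Interaction counts ran from 17 to 51 and 1 to 4 (CD4-higher, larger in memory and naive) and 9 to 35 and 1 to 4 (CD8-higher, the same order), and the counts of 2 and 3 each moved without 8 of the libraries. The first fell to 17 to 23 without either CD4 naive or memory after library of either animal, or without the CD4 memory before, CD8 naive before or CD8 naive after library of animal 2. The count of 23 fell to 9 to 12 without any CD4 library, either CD8 naive library of animal 2 or CD8 memory after of animal 1, and rose to 35 without CD8 memory before of animal 1. A lone library was then assumed to vary like the other groups. The time count ran from 1 to 2 (2 without CD4 memory after of animal 1) and 0 to 0, and its interaction from 0 (without CD4 naive before of animal 1) to 1 and 0 to 0. Animal counts ran from 13 to 29 and 21 to 29 (CD4-higher, animal 2 and 1) and 5 to 8 and 19 to 32 (CD8-higher). CD4 memory before, CD8 naive before and CD8 naive after moved the first by over 1.5 times, CD4 memory before the second, CD4 naive before and CD8 naive before the third, and CD4 memory before and after the last, of either animal. For named regions, 753 of 867 repeated values kept their direction and side of the threshold, 96 lost the call, 16 moved by more than 1 SD and 2 reversed. Part of these outcomes was fixed in advance. A gap cannot narrow when libraries are left out. In the exact tests of time and of the interactions, the smallest possible p is too large for a few regions to pass. These totals therefore do not measure how stable the named regions are. Depth limits what a list can show, and it was unknown.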
